A study of Homo sapiens with 6 samples.

Results

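The niche factors of marrow stroma examined here were 10 genes, CXCL12, CXCR4, ACKR3, KITLG, VCAM1, ANGPT1, LEPR, FOXC1, EBF3 and CSF1, out of 28181 genes listed in every library. They were chosen by name from what is known of the hematopoietic niche, were found by Ensembl identifier, and were followed from UE7T-9 Cont to UE7T-9 SHC4. All 10 were listed in all 6 libraries, and 9 had a mean of at least 1 normalized count and entered the test (CXCR4 did not). UE7T-9 is a human mesenchymal stem cell line from bone marrow that was immortalized with hTERT and the E7 gene of human papillomavirus. In UE7T-9 SHC4, a lentivirus drove SHC4, an adapter protein of the Shc family that couples receptor tyrosine kinases to their signals, from the CMV promoter. Infected cells were selected with puromycin. UE7T-9 Cont is described in the study's methods as carrying a GFP vector, whereas its sample labels say nontarget and wild-type genotype. Both groups share the parent line, the immortalizing genes and the DMEM culture, and each has 3 libraries. The series text speaks of cell clones, and no source used here says whether the 3 libraries of a group came from separate infections, clones or cultures, so the p-values measure only the spread between these samples.

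Blood stem cells in the marrow lie next to perivascular stromal cells that hold them in place and feed them. These stromal cells secrete the chemokine CXCL12, which keeps CXCR4-bearing blood cells in the marrow, display stem cell factor (KITLG) to cells carrying the receptor KIT, and carry the adhesion molecule VCAM1, to which blood cells bind through integrins. In the marrow this population is commonly recognised by the leptin receptor LEPR, and the transcription factors FOXC1 and EBF3 are needed to maintain it. Angiopoietin-1 (ANGPT1) acts on the receptor TEK of endothelial and stem cells, and CSF1 acts on macrophages through CSF1R.

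The deposited value is a normalized count, the gene's read count divided by 1 size factor per library, and the libraries held 18144993 to 27721397 reads. SHC4 itself was at 56.5, 157 and 130 normalized counts in UE7T-9 Cont 1, 2 and 3, and at 134870, 119166 and 155006 in UE7T-9 SHC4 1, 2 and 3. All libraries therefore matched their labels at the targeted gene. The comparison used limma on log2(normalized count + 1), a scale that understates the change of genes with few reads, and a call required a p below 0.05 after Benjamini-Hochberg adjustment with an absolute log2 fold change above 1. It called 14 of 23040 genes (0.0608%). UE7T-9 Cont 1 stood apart from the other controls, with a higher correlation over all genes to UE7T-9 SHC4 1 (Pearson's r 0.975) than to UE7T-9 Cont 2 (0.967) or UE7T-9 Cont 3 (0.962). Without it limma called 664 genes (2.88%), and without any 1 of the other 5 libraries between 2 and 34. Where leaving out UE7T-9 Cont 1 changed the call of a niche factor or of another gene named here, both values are given. This does not cover the 5 genes named for their likeness to CXCL12, for which no values without that library are given. Markers fixed for stromal cells were abundant, with a summed level of 5071 to 12676 TPM (reads per exon length, scaled to the same sum in each library) in UE7T-9 Cont and 7541 to 11249 in UE7T-9 SHC4.

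No niche factor was called by limma (0 of 9 tested, beside 0.0608% of all genes), and 3 had an unadjusted p below 0.05, beside 14.4% of all genes. DESeq2 on the recovered reads called 1 niche factor, LEPR, as higher in UE7T-9 SHC4, where it called 1.05% of all genes higher. edgeR called 0, beside 0.0631% of all genes, and gave LEPR and KITLG unadjusted p-values of 0.00285 and 0.0144. The fitted level was higher in UE7T-9 SHC4 for 6 of the 9 factors and lower for 3, with a median log2 difference of 0.14, beside 11440 higher and 11600 lower among all genes and a median of -0.004. Without UE7T-9 Cont 1, limma called CXCL12, LEPR and VCAM1 higher, where it called 1.49% of all genes higher, and DESeq2 called ACKR3 as well, where it called 2.97%. edgeR without that library called the same 3 as limma, beside 2.02% of all genes.

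**Figure D1:**
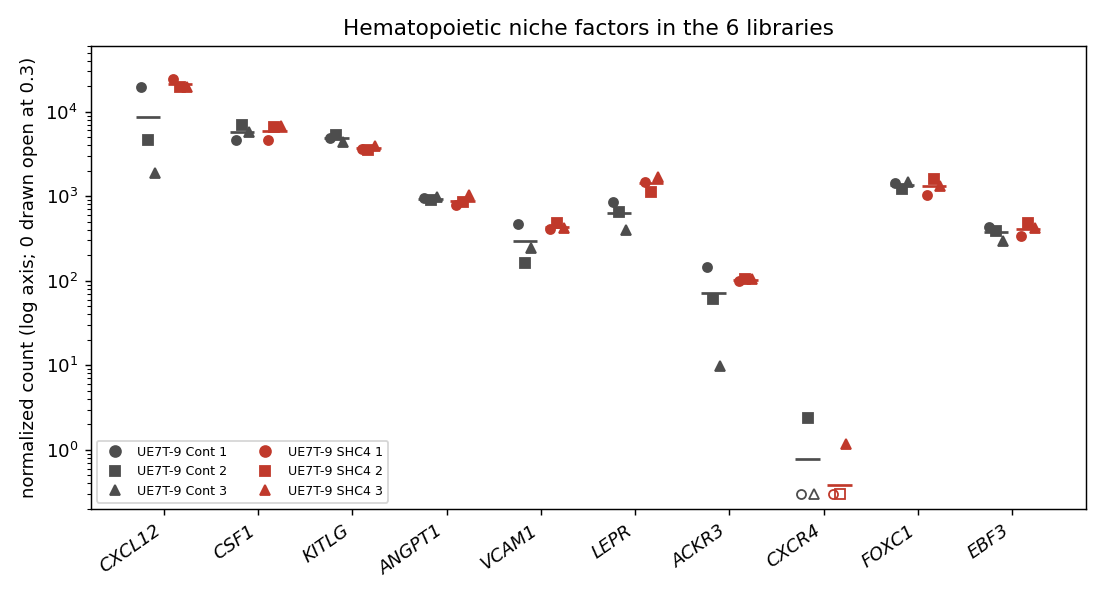
Normalized counts (log axis) of the 10 niche factors in the 6 libraries, with UE7T-9 Cont in grey, UE7T-9 SHC4 in red, symbols for the replicate number and bars for the group mean. For CXCL12, VCAM1, LEPR and ACKR3 the controls are spread out with UE7T-9 Cont 1 on top, whereas the UE7T-9 SHC4 libraries of CXCL12, VCAM1 and ACKR3 lie close together.

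CXCL12 (ENSG00000107562, chromosome 10, 44370165 to 44386493, GENCODE 29 on GRCh38), the chemokine that retains blood stem cells, was per length the most abundant niche factor of UE7T-9 SHC4. The 250 bases before its RefSeq start (GRCh38.p14, chr10:44385098-44385347, minus strand) are shown as a description. This window lies inside the GENCODE span given above, which reaches further upstream on that strand. It is reference sequence, the same for all libraries. Capitals mark the letters GGGCGG of a GC box on either strand, which occur 3 times here with a pair that overlaps.

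CXCL12: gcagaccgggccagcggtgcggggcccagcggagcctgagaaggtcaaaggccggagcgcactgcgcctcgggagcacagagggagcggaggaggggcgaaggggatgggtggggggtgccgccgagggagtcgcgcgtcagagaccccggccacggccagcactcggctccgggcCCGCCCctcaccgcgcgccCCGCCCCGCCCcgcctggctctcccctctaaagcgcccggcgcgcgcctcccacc

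Its normalized counts were 19481, 4683 and 1880 in controls 1, 2 and 3 of UE7T-9 Cont. They were 24558, 19535 and 19476 in UE7T-9 SHC4 1, 2 and 3. UE7T-9 Cont 1 reached the level of the overexpressing libraries and passed 1 of them, so the groups overlapped, while the other controls lay far below. Group means were 8681 ± 9457 (SD, n = 3) and 21190 ± 2917 (SD, n = 3), with a ratio of 2.44. The SD among the controls was 109% of their mean, against 13.8% among the UE7T-9 SHC4 libraries. limma gave a log2 fold change of 1.92 (SE 0.66, 95% interval 0.43 to 3.42, adjusted p = 0.25), and the adjusted p was 0.516 by DESeq2 and 0.395 by edgeR. CXCL12 thus did not pass in any of these tests with all libraries. Without UE7T-9 Cont 1, the only control that overlapped with UE7T-9 SHC4, the limma log2 fold change was 2.83 (SE 0.33, adjusted p = 0.00481). The adjusted p was then 6.25e-15 by DESeq2 and 0.0109 by edgeR. These fits had only UE7T-9 Cont 2 and 3 as controls, and those by DESeq2 and edgeR were added after the data were seen. Without UE7T-9 Cont 3, the control with the least CXCL12, the limma log2 fold change was 1.14. In bulk RNA, fewer cells making a transcript and less transcript per cell cannot be told apart, for CXCL12 and for the other factors.

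Other genes shared the pattern of CXCL12 over the 6 libraries. As a description, the genes with the most similar log2 values among 11520 genes with a mean of at least 100 were CLIP3 (Pearson's r 0.998), NACAD (0.997), CPNE2 (0.996), RTN2 (0.996) and the collagen COL8A2 (0.995), and 7.34% of those genes had an r above 0.9. Among the niche factors, r with CXCL12 was 0.92 for ACKR3, 0.91 for LEPR, 0.82 for VCAM1 and 0.62 for EBF3, and lay between -0.22 and -0.51 for FOXC1, CSF1, ANGPT1 and KITLG. All these values share the same 6 libraries, of which UE7T-9 Cont 1 is 1.

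The receptors of CXCL12 had the lowest mean levels per length of the niche factors in both groups, with almost no reads of CXCR4. CXCR4 (ENSG00000121966, chromosome 2, 136114349 to 136118165), the receptor through which blood cells respond to CXCL12, had 0, 2 and 0 reads in the controls, against 0, 0 and 1 in UE7T-9 SHC4. All 6 libraries were below the floor of 3 reads, which corresponds to 2.50 to 3.53 normalized counts, so no expression and no difference was detectable at this depth (floors cover counting error only). ACKR3 (ENSG00000144476, chromosome 2, 236567787 to 236582358), a receptor that binds and removes CXCL12, was at 144, 61.2 and 9.84 normalized counts in UE7T-9 Cont and at 98.4, 106 and 104 in UE7T-9 SHC4. The controls ran from far below to above the overexpressing libraries, which were nearly alike. Group means were 71.8 ± 67.8 (SD, n = 3) and 103 ± 3.75 (SD, n = 3), and limma gave a log2 fold change of 1.17 (SE 0.76, 95% interval -0.54 to 2.88, adjusted p = 0.516). It was 2.00 without UE7T-9 Cont 1 (adjusted p = 0.0991 by limma, 0.134 by edgeR and 0.048 by DESeq2) and 0.12 without UE7T-9 Cont 3, which held 10 reads of the gene. The size of the ACKR3 difference therefore depended on which control was used.

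LEPR (ENSG00000116678, chromosome 1, 65420652 to 65641559), the leptin receptor that marks niche stroma, was higher in every UE7T-9 SHC4 library than in any control. LEPR and LEPROT, a gene for a small membrane protein that affects leptin receptor display, start close together on the same strand. Their RefSeq starts were 16 bases apart and their GENCODE exons shared 165 bases, so reads in the shared part could not be assigned with certainty. The window before the LEPR start (GRCh38.p14, chr1:65420402-65420586, plus strand) is shown because both genes share it, without its last 65 bases, which hold LEPROT exon. Its 4 GC boxes are in capitals.

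LEPR: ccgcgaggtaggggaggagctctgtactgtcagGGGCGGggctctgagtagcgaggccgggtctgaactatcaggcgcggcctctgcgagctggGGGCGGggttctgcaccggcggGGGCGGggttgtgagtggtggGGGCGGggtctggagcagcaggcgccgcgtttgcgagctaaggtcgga

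The normalized counts of LEPR were 862, 658 and 398 in the control libraries 1, 2 and 3, against 1493, 1132 and 1699 in UE7T-9 SHC4 1, 2 and 3. The groups did not overlap, which held in this direction for 9.13% of all genes. Group means were 639 ± 232 (SD, n = 3) and 1441 ± 287 (SD, n = 3), with a ratio of 2.25. limma gave a log2 fold change of 1.22 (SE 0.27, 95% interval 0.62 to 1.82), which did not pass (adjusted p = 0.137), whereas DESeq2 gave 1.17 (SE 0.29, adjusted p = 0.00344) and edgeR an adjusted p of 0.151. The call therefore depended on the test. With UE7T-9 Cont 1 left out, the log2 fold change was 1.47 by limma (adjusted p = 0.0137), with an adjusted p of 1.99e-06 by DESeq2 and 0.0172 by edgeR. LEPROT was at 3501, 4376 and 4061 normalized counts in UE7T-9 Cont and at 3247, 4733 and 4894 in UE7T-9 SHC4, with overlapping groups and a log2 fold change of 0.09 (SE 0.18, 95% interval -0.31 to 0.50, adjusted p = 0.856 by limma). Per length, LEPR was at 11.3%, 6.93% and 4.52% of LEPROT in UE7T-9 Cont 1, 2 and 3 and at 21.2%, 11.02% and 16.0% in UE7T-9 SHC4 1, 2 and 3. On this ratio UE7T-9 Cont 1 lay just above UE7T-9 SHC4 2, so the groups overlapped by 1 library.

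VCAM1 (ENSG00000162692, chromosome 1, 100719742 to 100739045), the adhesion molecule that blood cells grip through integrins, had, like CXCL12, its highest control in UE7T-9 Cont 1. The 250 bases before its start (GRCh38.p14, chr1:100719492-100719741, plus strand) are shown because VCAM1 was the only 1 of the 7 niche factors with a RefSeq promoter entry that held the NF-kB-like motif. Capitals mark that motif, GGGNNTTCC, which occurs once, and the core promoter motif of the letters TATAAA on either strand, which occurs 3 times with a pair that overlaps.

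VCAM1: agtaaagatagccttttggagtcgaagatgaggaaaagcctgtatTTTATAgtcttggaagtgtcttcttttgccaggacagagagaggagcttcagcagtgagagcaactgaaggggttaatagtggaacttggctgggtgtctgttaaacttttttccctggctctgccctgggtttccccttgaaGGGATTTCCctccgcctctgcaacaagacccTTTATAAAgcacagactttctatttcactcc

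VCAM1 was at 472, 164 and 245 normalized counts in UE7T-9 Cont and at 411, 476 and 426 in UE7T-9 SHC4. UE7T-9 Cont 1 lay among the overexpressing libraries and the other controls lay below them. Group means were 294 ± 160 (SD, n = 3) and 438 ± 34.0 (SD, n = 3), and the limma log2 fold change was 0.71 (SE 0.32, 95% interval -0.01 to 1.44, adjusted p = 0.355). It did not pass by DESeq2 or edgeR either (adjusted p = 0.404 and 0.421). Without UE7T-9 Cont 1 it was 1.12 (SE 0.19, adjusted p = 0.0172 by limma, 0.000124 by DESeq2 and 0.0206 by edgeR), and without UE7T-9 Cont 2, the control with the least VCAM1, it was 0.36.

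UE7T-9 Cont 1 was the highest control for 5 of the 9 tested factors (CXCL12, ACKR3, VCAM1, LEPR and EBF3), beside 35.7% of all genes. For the same 5 of 9 it was also nearer to the mean of UE7T-9 SHC4 than to that of the other controls. Both held together for 24.4% of all genes. Among all genes it was the highest control for 8216, of which 5624 were also nearer to UE7T-9 SHC4. No label sets this library apart, and its part in these differences beyond the values without it was not tested.

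**Figure D2:**
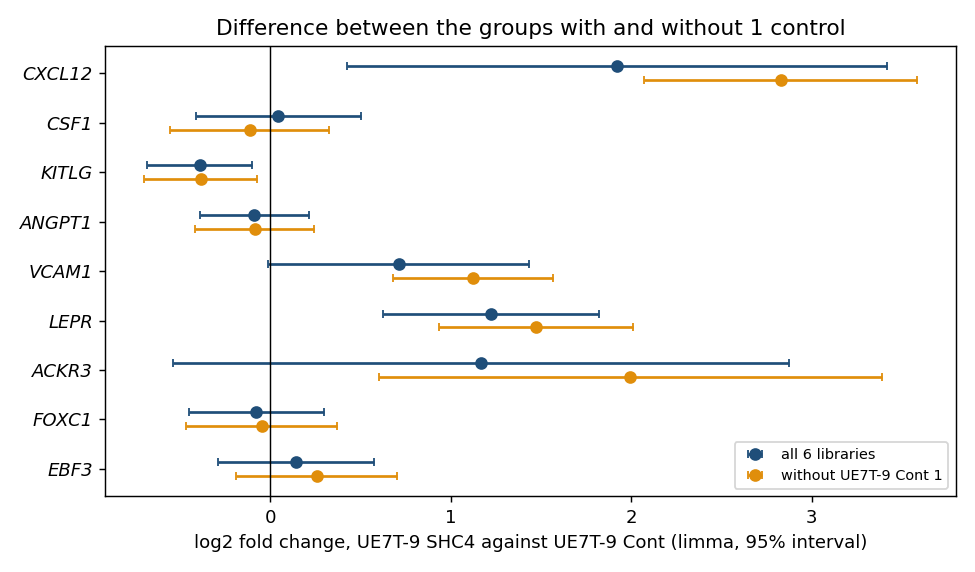
limma log2 fold changes (x axis) of the 9 tested niche factors in UE7T-9 SHC4 against UE7T-9 Cont, with 95% intervals, from all 6 libraries (blue) and without UE7T-9 Cont 1 (orange). Leaving out that control moved CXCL12 from 1.92 to 2.83 and VCAM1 from 0.71 to 1.12, whereas KITLG stayed at -0.39.

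KITLG (ENSG00000049130, chromosome 12, 88492793 to 88580851), stem cell factor, had the opposite direction. Its normalized counts were 4880, 5320 and 4368 in the controls, against 3618, 3537 and 3921 in UE7T-9 SHC4. Every overexpressing library lay below every control, which held for 10.2% of all genes. Group means were 4856 ± 477 (SD, n = 3) and 3692 ± 202 (SD, n = 3), with a ratio of 0.76, and limma gave a log2 fold change of -0.39 (SE 0.13, 95% interval -0.68 to -0.10). This did not pass by limma, DESeq2 or edgeR (adjusted p = 0.233, 0.0968 and 0.201), and the exact permutation test reached 0.1 for both KITLG and LEPR, the smallest p that 3 against 3 libraries allow. Leaving out UE7T-9 Cont 1 again gave a log2 fold change of -0.39 (adjusted p = 0.143 by limma). KITLG shares 80 exon bases with an antisense gene, and the strand setting of the counting is not given in the sources used here. Per length, CXCL12 was at 4.08, 0.899 and 0.439 times the level of KITLG in UE7T-9 Cont 1, 2 and 3, and at 6.93, 5.64 and 5.07 times in UE7T-9 SHC4. CXCL12 thus exceeded KITLG in 4 libraries and lay below it in UE7T-9 Cont 2 and 3.

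CSF1 and ANGPT1, the other secreted factors, gave no difference beyond their spread. CSF1 (ENSG00000184371, chromosome 1, 109910242 to 109930992), the macrophage growth factor, was at 4579, 7015 and 5784 normalized counts in UE7T-9 Cont and at 4616, 6552 and 6741 in UE7T-9 SHC4. All 3 UE7T-9 SHC4 libraries lay within the range of the controls, and the log2 fold change was 0.04 (SE 0.20, 95% interval -0.41 to 0.50, adjusted p = 0.943 by limma). ANGPT1 (ENSG00000154188), the TEK ligand, was at 943, 901 and 975 normalized counts in UE7T-9 Cont and at 778, 862 and 1022 in UE7T-9 SHC4. UE7T-9 SHC4 held both the lowest and the highest library, and the log2 fold change was -0.09 (SE 0.13, 95% interval -0.39 to 0.21, adjusted p = 0.80 by limma). These intervals leave room for differences of up to 0.50 and 0.39 on the log2 scale.

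The transcription factors that maintain niche stroma were expressed in all libraries, with no difference beyond their spread. FOXC1 (ENSG00000054598, chromosome 6, 1609972 to 1613897), a forkhead factor, was at 1422, 1210 and 1485 normalized counts in UE7T-9 Cont and at 1046, 1582 and 1316 in UE7T-9 SHC4. EBF3 (ENSG00000108001, chromosome 10, 129835283 to 129963841), an early B cell factor family member, was at 436, 391 and 298 in UE7T-9 Cont and at 335, 482 and 422 in UE7T-9 SHC4. For both genes the groups overlapped. The log2 fold changes were -0.08 for FOXC1 (SE 0.17, 95% interval -0.45 to 0.30) and 0.14 for EBF3 (SE 0.19, 95% interval -0.29 to 0.57), with adjusted p-values of 0.869 and 0.784 by limma. EBF3 shares 290 exon bases with an antisense gene that was not analysed here.

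Of 9 other transcription factors of marrow stroma, all were tested and 0 were called by limma, DESeq2 or edgeR, beside 0.0608% of all genes called by limma. The unadjusted p by limma was below 0.05 for 0, beside 14.4% of all genes. Groups that did not overlap were found for 0, beside 9.13% of all genes higher and 10.2% lower. The fitted differences were 6 higher and 3 lower, with a median log2 difference of 0.14. Among the relatives of EBF3, the log2 differences were 0.20 for EBF1, -0.15 for EBF2 and -0.50 for EBF4, which had few reads. FOXC2, the close relative of FOXC1, was at 0.14. The osteoblast regulator RUNX2 was at -0.31 and its blood-cell counterpart RUNX1 at 0.36, while the limb and stromal factor PRRX1 was at 0.51 and the hypoxia-inducible factors HIF1A and EPAS1 were at 0.01 and 0.46. Their adjusted p-values by limma lay between 0.355 and 0.992. Without UE7T-9 Cont 1 the adjusted p of PRRX1 was 0.0367, with a log2 difference of 0.77, below the fold threshold.

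**Figure D3:**
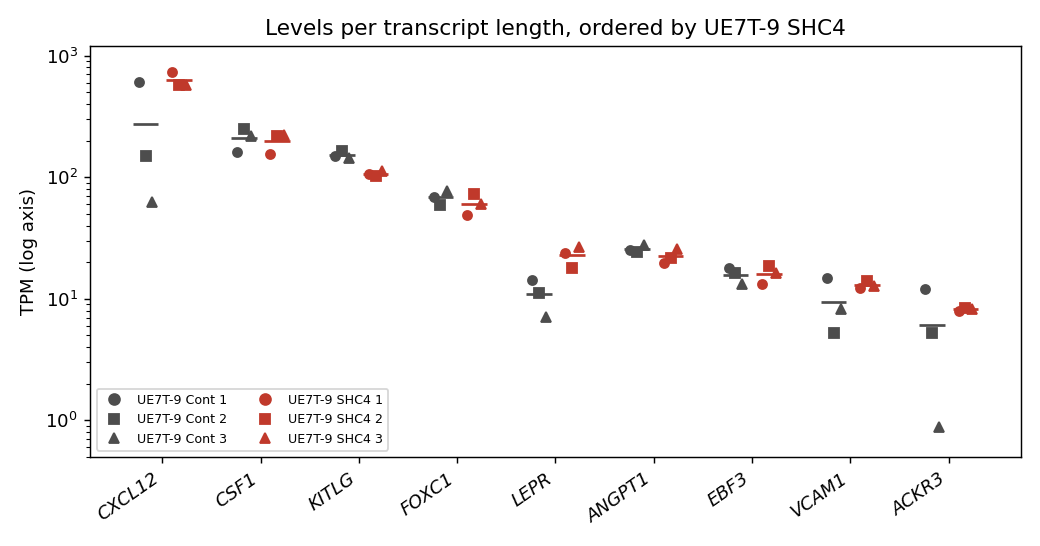
Levels per length (TPM, log axis) of 9 niche factors in the 6 libraries, ordered by the mean of UE7T-9 SHC4, with bars for the group means. CXCL12, CSF1 and KITLG lie above 60 TPM in every library, and CXCR4, which had at most 2 reads, is left out.

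Levels can be compared between genes only per length, here in TPM over the exons of GENCODE 29. In UE7T-9 Cont the order was CXCL12 (273 ± 292 TPM, SD, n = 3), CSF1 (209 ± 45.6), KITLG (152 ± 11.7), FOXC1 (68.3 ± 8.67), ANGPT1 (25.7 ± 1.80), EBF3 (15.7 ± 2.42), LEPR (10.9 ± 3.62), VCAM1 (9.40 ± 4.87) and ACKR3 (6.07 ± 5.65), with CXCR4 at the floor. Of neighbours in this order, the ranges over the 3 libraries overlapped for CXCL12 and CSF1, CSF1 and KITLG, EBF3 and LEPR, LEPR and VCAM1, and VCAM1 and ACKR3. In UE7T-9 SHC4, CXCL12 was at 628 ± 92.0 TPM (SD, n = 3) and no longer overlapped with CSF1 (198 ± 37.6), which was followed by KITLG (107 ± 5.58) and FOXC1 (60.2 ± 11.9). LEPR (22.8 ± 4.55) came next and overlapped with ANGPT1 (22.4 ± 2.99), EBF3 (16.1 ± 2.77) overlapped with VCAM1 (13.0 ± 0.946), and ACKR3 (8.18 ± 0.238) was last of the genes above the floor. LEPR was thus 2 places higher in the order of UE7T-9 SHC4, among neighbours that overlapped.

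The partners of the niche factors were examined as a list of 11 genes, of which 10 were tested and 0 were called by limma, DESeq2 or edgeR, beside 0.0608% of all genes called by limma. The unadjusted p by limma was below 0.05 for 3, beside 14.4% of all genes. DESeq2 gave no adjusted p for TEK, ITGB7, ANGPT2 and ANGPT4, which had few reads. In 3 of them, KIT, ANGPT2 and IL34, every UE7T-9 SHC4 library lay above every control, as for 9.13% of all genes. KIT, the receptor of KITLG, was at 138, 155 and 69.8 normalized counts in UE7T-9 Cont and at 306, 201 and 205 in UE7T-9 SHC4, with a log2 fold change of 1.02 (SE 0.31, adjusted p = 0.208 by limma and 0.0682 by DESeq2). With UE7T-9 Cont 1 left out, DESeq2 called KIT (1.09, adjusted p = 0.0282), and limma and edgeR did not (adjusted p = 0.0886 and 0.0961). The groups of KITLG and KIT were thus apart in opposite directions. The level of KITLG per length was 31.6, 30.7 and 56.1 times that of KIT in UE7T-9 Cont and 10.6, 15.7 and 17.2 times in UE7T-9 SHC4. IL34, the other ligand of CSF1R, was at 23.4, 3.53 and 5.90 normalized counts in UE7T-9 Cont and at 35.2, 29.1 and 29.1 in UE7T-9 SHC4, with a log2 fold change of 1.81 (SE 0.61, adjusted p = 0.24 by limma and 0.22 by DESeq2). UE7T-9 Cont 1 was again the highest control, and without it IL34 was called by all 3 tools (log2 fold change 2.52, adjusted p = 0.0187 by limma, 0.00256 by DESeq2 and 0.0196 by edgeR). CSF1R itself was at 28.3, 27.1 and 47.2 in UE7T-9 Cont and at 39.5, 9.99 and 9.32 in UE7T-9 SHC4, with overlapping groups (log2 fold change -1.04, adjusted p = 0.435 by limma). The TEK ligand ANGPT2 and TEK itself had at most 10.8 normalized counts in any library, with log2 differences of 1.22 and -1.46 that did not pass (adjusted p = 0.449 and 0.397 by limma). ANGPT4, another TEK ligand, was at -1.13 (adjusted p = 0.458). The VCAM1-binding integrins ITGA4 and ITGB1 were at 0.16 and 0.17 (adjusted p = 0.725 and 0.739 by limma), and ITGB7, with at most 6.99 normalized counts, was at 1.95 (adjusted p = 0.293). Leptin (LEP) was not analysed here.

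**Figure D4:**
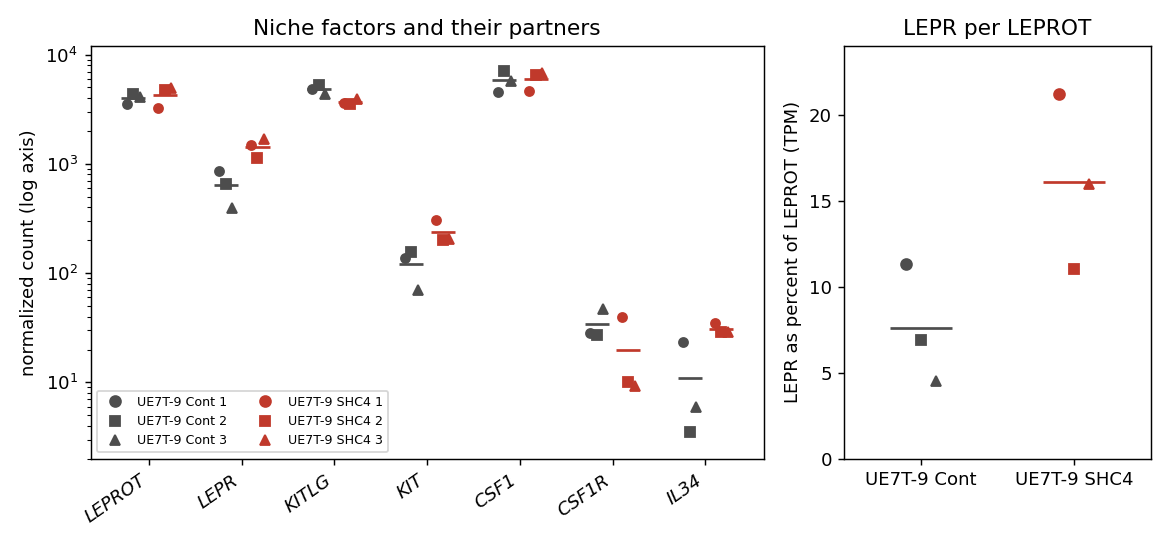
Left, normalized counts (log axis) of niche factors and their partners in the 6 libraries, with bars for the group means. Right, LEPR as a percent of LEPROT in TPM, from 4.52% to 11.3% in UE7T-9 Cont and from 11.02% to 21.2% in UE7T-9 SHC4, where the groups overlap by 1 library.

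Among 14 other genes of the CXCL12 axis (ligands that share its receptors, proteases that cut it and regulators of receptor signalling), 10 were tested, with 5 higher and 5 lower. Of these, limma called 0 (beside 0.0608% of all genes), edgeR 0 (0.0631%) and DESeq2 0 (1.05% higher and 1.15% lower). The unadjusted p by limma was below 0.05 for 3, beside 14.4% of all genes. With UE7T-9 Cont 1 left out limma again called 0, beside 2.88% of all genes. DESeq2 then called CXCL11 lower (-3.20, adjusted p = 0.0156), as it did 417 of 16015 genes. CXCL11, a ligand of ACKR3, was named here after its values were seen. GRK3, a kinase that desensitises chemokine receptors, was at 337 ± 14.0 (SD, n = 3) normalized counts in UE7T-9 Cont and at 233 ± 5.80 (SD, n = 3) in UE7T-9 SHC4, with every overexpressing library below every control, as for 10.2% of all genes. Its log2 fold change of -0.53 had an adjusted p of 0.18 by limma, 0.0467 by DESeq2 and 0.156 by edgeR, below the fold threshold in each. ADM, named after its values were seen, was the other gene of this list without overlap. It was higher in UE7T-9 SHC4, as for 9.13% of all genes (log2 fold change 0.62, adjusted p = 0.267 by limma). Without UE7T-9 Cont 1 it was at 0.84 (adjusted p = 0.0439 by limma and 0.00264 by DESeq2), below the fold threshold. Of 5 proteases that release such factors from the cell surface, 4 were tested and 0 were called by limma, DESeq2 or edgeR, beside 0.0608% of all genes called by limma. They lay between ADAM17 at -0.21 and BACE1 at 0.25 (0 with an unadjusted p below 0.05 by limma, beside 14.4% of all genes).

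Among 20 other niche cytokines, 18 were tested, with 6 higher and 12 lower and a median log2 difference of -0.30. DESeq2 called 1 higher and 1 lower (beside 1.05% and 1.15% of all genes). Both limma and edgeR called 0, beside 0.0608% and 0.0631% of all genes. The unadjusted p by limma was below 0.05 for 6, beside 14.4% of all genes. The DESeq2 calls were TNFRSF11B, the decoy receptor osteoprotegerin that restrains osteoclast formation, and SPP1, the matrix protein osteopontin. TNFRSF11B was at 401, 320 and 218 normalized counts in UE7T-9 Cont and at 1098, 571 and 830 in UE7T-9 SHC4, all above the controls (log2 fold change 1.40, SE 0.27, adjusted p = 0.111 by limma, 0.000371 by DESeq2 and 0.13 by edgeR). UE7T-9 Cont 1 was the highest control, and without it TNFRSF11B was called by limma and edgeR too (log2 fold change 1.60, adjusted p = 0.0163 by limma and 0.0194 by edgeR). SPP1 was at 1040, 10458 and 17769 in UE7T-9 Cont and at 350, 708 and 943 in UE7T-9 SHC4. All 3 overexpressing libraries lay below the controls, but UE7T-9 Cont 1 was close to them (log2 fold change -3.23, adjusted p = 0.187 by limma and 0.00959 by DESeq2), and without it the log2 fold change was -4.47 (adjusted p = 0.00135 by limma and 0.00346 by edgeR). The only other cytokine limma called without that library was LIF, named after its values were seen (-1.16, adjusted p = 0.0444), which makes 1 higher and 2 lower of 18, beside 1.49% and 1.39% of all genes. DLL4, a Notch ligand, was at 12.7, 16.5 and 10.8 in UE7T-9 Cont and at 3.52, 1.66 and 2.33 in UE7T-9 SHC4, without overlap (log2 fold change -2.05, adjusted p = 0.166 by limma).

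All 9 niche adhesion genes were tested, with 6 higher and 3 lower. Of them, limma called 0 (beside 0.0608% of all genes), edgeR 0 (0.0631%) and DESeq2 0 (1.05% higher and 1.15% lower). The unadjusted p by limma was below 0.05 for 5, beside 14.4% of all genes. Groups did not overlap for 2 higher genes and 1 lower gene, beside 9.13% and 10.2% of all genes. The lower gene was MCAM (log2 fold change -0.58, adjusted p = 0.218 by limma). It was at 1383, 1282 and 988 normalized counts in UE7T-9 Cont and at 910, 638 and 904 in UE7T-9 SHC4. TNC had the lowest log2 fold change of the list (-0.77, adjusted p = 0.249 by limma). MCAM and TNC were named after their values were seen. BST1, a surface enzyme first described on marrow stroma, was at 260, 197 and 250 normalized counts in UE7T-9 Cont and at 474, 390 and 516 in UE7T-9 SHC4, all above the controls. Its log2 fold change was 0.96 (SE 0.17, adjusted p = 0.0961 by limma, 0.000583 by DESeq2 and 0.123 by edgeR), just under the fold threshold. Without UE7T-9 Cont 1 it was 1.04 and BST1 was called by all 3 tools (adjusted p = 0.0172 by limma, 0.000152 by DESeq2 and 0.0193 by edgeR). limma then called 2 of the 9 adhesion genes higher, beside 1.49% of all genes, the other being the cadherin CDH11, named after its values were seen (1.11, adjusted p = 0.0232). Of the 9 stromal markers, 8 were higher, with a median log2 difference of 0.42, beside -0.004 for all genes. limma and edgeR called 0, beside 0.0608% and 0.0631% of all genes. The unadjusted p by limma was below 0.05 for 2, beside 14.4% of all genes. DESeq2 called 1 higher, beside 1.05% of all genes. This was PDGFRB, the receptor of platelet-derived growth factor that marks perivascular stroma. PDGFRB was at 4122, 1487 and 1678 in UE7T-9 Cont and at 6634, 5281 and 5178 in UE7T-9 SHC4 (log2 fold change 1.38, SE 0.33, adjusted p = 0.162 by limma, 0.0171 by DESeq2 and 0.188 by edgeR). As for CXCL12 and LEPR, UE7T-9 Cont 1 was the highest control, and without it PDGFRB was called by all 3 tools (1.84, adjusted p = 0.00135 by limma and 0.00304 by edgeR). The median of the stromal markers was then 0.77, beside -0.009 for all genes, and limma called 2 of 9 higher, beside 1.49% of all genes, the other being THY1, named after its values were seen (1.67, adjusted p = 0.00288). Perivascular markers summed to 689 to 814 TPM over the controls, against 821 to 900 TPM over the UE7T-9 SHC4 libraries. GREM1 was the largest of them in every library, at 403, 549 and 319 TPM in controls 1, 2 and 3. It was at 464, 531 and 653 TPM in UE7T-9 SHC4 1, 2 and 3, with overlapping groups. Of the 7 markers, 4 were higher and 3 lower, and the only 1 without overlap, MCAM, was lower. The log2 differences lay between NGFR at -1.75 (adjusted p = 0.286 by limma) and GREM1 at 0.51 (adjusted p = 0.429 by limma). Without UE7T-9 Cont 1, NGFR was at -2.41 (adjusted p = 0.0497 by limma).

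Markers of other marrow cells were summed in each library, and their part in the differences of the niche factors was not tested. Hematopoietic markers summed to 13.7 to 21.3 TPM in UE7T-9 Cont and to 9.09 to 11.3 TPM in UE7T-9 SHC4, with SPI1 and CD53 at or under 3 reads in all libraries. Of 6 tested, 5 were lower, and DESeq2 called 1 lower, LAPTM5, a lysosomal membrane protein of blood cells, beside 1.15% of all genes. LAPTM5 had a limma log2 fold change of -2.64 (adjusted p = 0.155 by limma, 0.00158 by DESeq2 and 0.158 by edgeR). Without UE7T-9 Cont 1 it was called by all 3 tools (-3.12, adjusted p = 0.0254 by limma and 0.0223 by edgeR). PTPRC, with at most 6.82 normalized counts, was at -1.46 (adjusted p = 0.37 by limma). SPI1, CD14 and CD34 were at -0.40, -0.25 and -0.03, and CORO1A, the only higher marker, was at 0.30. Their adjusted p-values by limma lay between 0.678 and 0.969, and CD14, CD34 and CORO1A were named after their values were seen. Endothelial markers summed to 2.61 to 7.06 TPM and 2.19 to 5.88 TPM, with CDH5, TIE1 and EMCN at or under 3 reads throughout. PECAM1 was at a log2 difference of 1.12 with overlapping groups (adjusted p = 0.407 by limma), and TEK was the lowest. Adipocyte markers summed to 7.19 to 12.4 TPM and 3.74 to 6.01 TPM, with ADIPOQ at or under 3 reads. FABP4 was at -1.12 (adjusted p = 0.226 by limma) and PLIN1, which had few reads, at -1.11 (adjusted p = 0.409 by limma). Leaving out UE7T-9 Cont 1, DESeq2 called FABP4 (-1.31, adjusted p = 0.0339) and limma did not (adjusted p = 0.0836). Osteoblast markers summed to 134 to 1599 TPM and 50.1 to 78.7 TPM, of which SPP1 was the only 1 called by DESeq2, and SP7 was at or under 3 reads. These sums were mostly SPP1, at 84.7, 870 and 1555 TPM in UE7T-9 Cont and at 27.4, 54.7 and 72.8 TPM in UE7T-9 SHC4. All 4 tested osteoblast markers had a lower fitted level, but only SPP1 had groups without overlap. ALPL was at -1.37 (adjusted p = 0.305 by limma). BGLAP and IBSP, which had few reads, were at -0.45 and -0.06 (adjusted p = 0.866 and 0.984 by limma). ALPL, BGLAP and IBSP were named after their values were seen.

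Of the 10 niche factors, 7 had a RefSeq promoter entry, and ACKR3, CSF1 and ANGPT1 were not among them. GC boxes stood in 6 of the 7 windows of 250 bases (LEPR, CXCR4, FOXC1, CXCL12, EBF3 and KITLG), beside 42.6% of 35116 RefSeq promoters. The TATAAA motif stood in 3 (VCAM1, CXCR4 and KITLG), beside 10.7%, and the NF-kB-like motif in VCAM1 alone, beside 5.78%. An EBF-like motif (CCCNNGGG) was found in CXCR4 and EBF3, beside 17.1% of promoters, and the hypoxia response core (ACGTG) in 0 of 7, beside 18.5%. All motifs were searched on both strands, and a match describes letters only. The CXCL12 and VCAM1 windows differed in base composition, with 78% and 46% G or C.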

How the data were processed

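NEBNext Ultra libraries of total RNA from UE7T-9 Cont (3 samples) and UE7T-9 SHC4 (3 samples) were read on a NovaSeq instrument. The submitters' processing notes name HISAT2 2.0.5, featureCounts 1.5.0-p3 and DESeq2. The genome build, annotation and strand setting are not given in the sources used here. The authors deposited, for each gene, a signal that is its read count over the size factor of the library (here called a normalized count). All values (100%) were whole multiples of the value of 1 read (tolerance 0.01 reads), so reads were recovered by division.

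Groups were compared with limma 3.58.1 under R 4.3.3, using lmFit and eBayes with trend, after log2(value + 1) transformation. The 23040 genes whose mean reached 1 were fitted and their p-values adjusted by Benjamini-Hochberg, and 5141 lower genes were left out. A single gene's separation was also tested by an exact two-sided permutation test over all 20 assignments of libraries, with 0.1 as the smallest p. DESeq2 1.42.0 and edgeR 4.0.16 (quasi-likelihood) on recovered reads were alternatives, besides TMM and library total scaling, other filters, pseudocount 0.1, a replicate block and leaving out each library. DESeq2 and edgeR without UE7T-9 Cont 1 were added after the data were seen.

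Samples were grouped by the labels. Symbols and positions were matched by identifier to GENCODE 29 on GRCh38 (28181 of 28181). TPM was computed from recovered reads and merged exon lengths. Depth was 18144993 to 27721397 reads per library, where a floor of 3 reads equals 2.50 to 3.53 normalized counts. The genes and lists were chosen with earlier results of these data known, so no list was tested as a set. Named were the 10 niche factors, SHC4, all partners and stromal transcription factors, and the 5 genes most like CXCL12. Of the other lists, genes were named that had an adjusted p below 0.05 in any of the 3 tools, or groups apart with an absolute log2 fold change above 1, and otherwise the highest and lowest.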

Additional observations from a re-analysis of the deposited data

How the results depend on the processing

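Of 144 values of the 9 tested niche factors under 16 alternatives each, 124 kept their direction and their side of the threshold, 11 moved past it and 9 changed sign. LEPR passed in DESeq2 (log2 fold change 1.17). Without UE7T-9 Cont 1, DESeq2 and edgeR passed CXCL12 (2.69 and 2.70), LEPR (1.45 and 1.46) and VCAM1 (1.10 and 1.10), and DESeq2 also ACKR3 (1.55), while CSF1 turned to -0.099 in DESeq2 and -0.093 in edgeR. CSF1 was at -0.059 with library total scaling, which shifted the median of all genes by -0.10. With 1 library left out at a time, the log2 fold change ranged from 1.14 to 2.83 for CXCL12, 0.12 to 2.00 for ACKR3, -0.47 to -0.32 for KITLG, 0.36 to 1.12 for VCAM1, -0.20 to 0.00017 for ANGPT1, 0.92 to 1.47 for LEPR, -0.22 to 0.077 for FOXC1, -0.016 to 0.28 for EBF3 and -0.11 to 0.22 for CSF1, and the number of niche factors called from 0 to 3 (3 without UE7T-9 Cont 1). DESeq2 called 1 niche factor, DESeq2 without UE7T-9 Cont 1 called 4 and edgeR without it 3. Over all genes, 14 were called by limma, 355 by DESeq2 (170 higher, 185 lower), 24 with TMM scaling, 40 with no filter, 39 with a replicate block (25 higher, 14 lower), 892 by DESeq2 and 695 by edgeR without UE7T-9 Cont 1, and 2 to 664 with 1 library left out. The cause of these shifts was not tested. The libraries share only a replicate number: deviations of same-numbered libraries correlated at 0.148, 0.013 and -0.007, not every library correlated best with its own number, and the block changed no call of a niche factor. CXCR4 and the other genes near the floor of 3 reads could not be compared at this depth, and 3 libraries per group leave wide intervals for CXCL12 and ACKR3.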
